A study of Mus musculus with 6 samples.

Results

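The 10 genes described here encode enzymes that break down the branched-chain amino acids leucine, isoleucine and valine, together with the kinase and the phosphatase that switch the pathway off and on. They were chosen by name, as Bcat1, Bcat2, Bckdha, Bckdhb, Dbt, Bckdk, Ppm1k, Ivd, Mccc1 and Aldh6a1, out of 19938 genes with a probe set of their own on the array. Each of the 10 was read by 1 probe set annotated with exactly 1 gene symbol, and all 10 were bright enough to be tested. Their levels are array intensities, which cannot be set against each other between genes.

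RNA came from eWAT, the visceral white fat around the epididymis, taken from male C57BL6/J mice that received a high-fat diet (HFD) for 12 weeks, starting when they were 6 weeks old. In the rAAV-Lmo3 group both fat pads had been injected, after an initial period on the diet, with a recombinant adeno-associated virus of serotype Rec2 carrying Lmo3, a LIM-domain transcriptional cofactor. In the rAAV-YFP group the same type of virus carried yellow fluorescent protein as control. The treatment text of the labels calls the control rAAV-LacZ, and the name in the sample titles is used here. A chicken beta-actin promoter with a CMV enhancer, which is not restricted to adipocytes, drove both transgenes. Each group held 3 arrays, and the RNA of each array was a pool from 2 mice. Arrays are named by group and replicate number, such as rAAV-Lmo3 1.

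Breakdown of the 3 amino acids begins with a reversible transfer of the amino group by an aminotransferase, which leaves branched-chain keto acids. The mitochondrial branched-chain keto acid dehydrogenase complex then removes a carboxyl group in the committed step, and separate branches carry leucine, isoleucine and valine carbon towards acetyl-CoA and propionyl-CoA. Phosphorylation inactivates the complex and dephosphorylation activates it. Adipocytes express the pathway strongly once they are mature, and part of the leucine carbon they take up ends in lipid.

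The probe set of Lmo3 read 24, 26 and 24 on the rAAV-Lmo3 arrays, against 25, 24 and 24 on the rAAV-YFP arrays. These intensities are in the dim range that was not tested, and they did not separate the groups, so the arrays do not check the labels. Whether the probes match the delivered sequence is not given in the sources used here, and the group names below are those of the labels. Median intensities lay between 123 and 127.5 on all 6 arrays. The array rAAV-Lmo3 1 and the array rAAV-YFP 2 stood apart, correlating with the rest at 0.959 and 0.963 on average over the tested genes, where the remaining arrays lay between 0.973 and 0.977. White adipocyte markers were bright on every array, with summed intensities of 54009 to 67386 on rAAV-Lmo3 arrays and 57387 to 68399 on rAAV-YFP arrays over 8 genes. All 6 epididymis markers with a probe set were too dim to be tested, and of 5 brown adipocyte markers only Cox8b was tested.

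The comparison of the groups asks whether delivery of Lmo3 was accompanied by other levels of the breakdown enzymes in fat of obese mice. None of the 10 genes passed the test. Their log2 differences, always rAAV-Lmo3 minus rAAV-YFP, ran from -0.11 for Ppm1k to 0.32 for Bckdk, and the groups overlapped for all 10. At an adjusted p under 0.05 (limma, Benjamini-Hochberg) 0 of 11963 genes were called, which is 0% of the table, and adjusted p-values of the 10 lay between 0.970 and 0.994. At an unadjusted p under 0.05 limma called 558 genes (4.66%) and 0 of the 10, and the equal-variance test per gene that the study's methods name called 555 genes (4.64%) and 0% after adjustment. Groups did not overlap for 10.5% of all tested genes, 4.53% on the higher and 5.95% on the lower side. With 3 pools against 3, an exact permutation test cannot give a p below 0.1.

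The aminotransferases carry out the first step. Bcat2, the mitochondrial enzyme and the main form outside the brain, had intensities of 1360, 736 and 618 on rAAV-Lmo3 arrays, against 601, 862 and 800 on rAAV-YFP arrays. The array rAAV-Lmo3 1 was by far the highest, and the other arrays of both groups were mixed. The log2 difference was 0.19 ± 0.30 (SE, n = 3 pools per group), with a 95% interval of -0.52 to 0.91, the widest of the 10. Without rAAV-Lmo3 1 it was -0.14.

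Bcat1, the cytosolic enzyme, which is known from brain and from activated immune cells, read 199, 259 and 307 on rAAV-Lmo3 arrays, against 302, 197 and 231 on rAAV-YFP arrays. Here rAAV-Lmo3 1 and rAAV-YFP 2 were the lowest arrays of their groups, the reverse of Bcat2. The log2 difference was 0.07 ± 0.21 with an interval of -0.43 to 0.57. It was 0.24 without rAAV-Lmo3 1.

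The dehydrogenase complex is built from a decarboxylase of alpha subunits (Bckdha) and beta subunits (Bckdhb), a transacylase core (Dbt) and the dihydrolipoamide dehydrogenase Dld, which it shares with other complexes. Bckdha had 1256, 665 and 721 on rAAV-Lmo3 arrays, against 690, 932 and 734 on rAAV-YFP arrays. Bckdhb had 847, 491 and 559 on rAAV-Lmo3 arrays, against 537, 704 and 513 on rAAV-YFP arrays. For both subunits rAAV-Lmo3 1 was the highest of the 6 arrays and rAAV-YFP 2 the next. The log2 differences were 0.12 ± 0.25 for Bckdha and 0.09 ± 0.22 for Bckdhb, with intervals of -0.49 to 0.72 and -0.45 to 0.62.

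Dbt had 1644, 1075 and 952 on rAAV-Lmo3 arrays, against 966, 1503 and 1248 on rAAV-YFP arrays, a log2 difference of -0.04 ± 0.24 (-0.61 to 0.54). The same arrays were highest, and the other rAAV-Lmo3 arrays lay below the mean of the rAAV-YFP arrays. Without rAAV-Lmo3 1 the differences were -0.17 for Bckdha, -0.14 for Bckdhb and -0.27 for Dbt. Dld had 2052, 1511 and 1599 on rAAV-Lmo3 arrays, against 1344, 1422 and 1352 on rAAV-YFP arrays, so its groups did not overlap. Its log2 difference of 0.31 ± 0.13 had an unadjusted p of 0.0434 and an adjusted p of 0.970 in limma, and was 0.18 without rAAV-Lmo3 1.

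Bckdk phosphorylates the alpha subunit and thereby inactivates the complex. It had 1637, 962 and 1101 on rAAV-Lmo3 arrays, against 818, 1049 and 1036 on rAAV-YFP arrays, the largest difference of the 10 at 0.32 ± 0.21 on the log2 scale (-0.18 to 0.82, 1.25-fold). The groups overlapped, because rAAV-Lmo3 2 lay below rAAV-YFP 2 and 3, and the exact two-sided permutation p was 0.4. Leaving out each array in turn gave 0.10 (without rAAV-Lmo3 1) to 0.48 (without rAAV-Lmo3 2).

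Ppm1k, the mitochondrial phosphatase that reverses this and activates the complex, had 181, 163 and 175 on rAAV-Lmo3 arrays, against 160, 192 and 212 on rAAV-YFP arrays. Its arrays spread least, over 0.41 on the log2 scale, where Bcat2 spread over 1.18. Ppm1k was also the dimmest of the 10 genes, and whether this narrowed its spread was not tested. The difference of -0.11 ± 0.12 had the narrowest interval of the 10, -0.40 to 0.17. Only Bckdk and Ppm1k kept the sign of their difference whichever single array was left out.

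Because the kinase and the phosphatase act on the same site, their log2 ratio was also computed, after their values had been seen. Bckdk over Ppm1k was 3.18, 2.56 and 2.65 on rAAV-Lmo3 arrays, against 2.35, 2.45 and 2.29 on rAAV-YFP arrays. The groups did not overlap, and the difference of 0.43 ± 0.20 (SE, 1.35-fold) had an exact two-sided permutation p of 0.1, the smallest that 3 pools against 3 can give. It was 0.24 without rAAV-Lmo3 1 and 0.29 without both arrays that stood apart. Of the 45 ratios that the 10 genes form, 4 did not overlap, those of Bckdk with Ppm1k, Dbt and Aldh6a1 and that of Bcat2 with Dbt. Among all pairs of tested genes 10.9% of ratios did not overlap, so the count among the 10 genes is near that background. The absolute value of a ratio between probe sets has no meaning, and only its difference between arrays is read here.

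Leucine is carried on by isovaleryl-CoA dehydrogenase (Ivd) and by methylcrotonyl-CoA carboxylase, whose biotin-bearing subunit is Mccc1. Ivd had 1684, 939 and 870 on rAAV-Lmo3 arrays, against 824, 1253 and 1134 on rAAV-YFP arrays, a log2 difference of 0.08 ± 0.28 (-0.59 to 0.75). Mccc1 had 1439, 796 and 772 on rAAV-Lmo3 arrays, against 748, 841 and 785 on rAAV-YFP arrays, a log2 difference of 0.28 ± 0.24 (-0.29 to 0.85, 1.21-fold). The control arrays of Mccc1 were the tightest of the 10, with an SD of 0.08, and its difference was -0.01 without rAAV-Lmo3 1. Aldh6a1, the methylmalonate semialdehyde dehydrogenase of the valine branch, had 4099, 2308 and 2358 on rAAV-Lmo3 arrays, against 2083, 2860 and 2828 on rAAV-YFP arrays. Its difference was 0.14 ± 0.25 (-0.46 to 0.73), and -0.14 without rAAV-Lmo3 1.

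**Figure D1:**
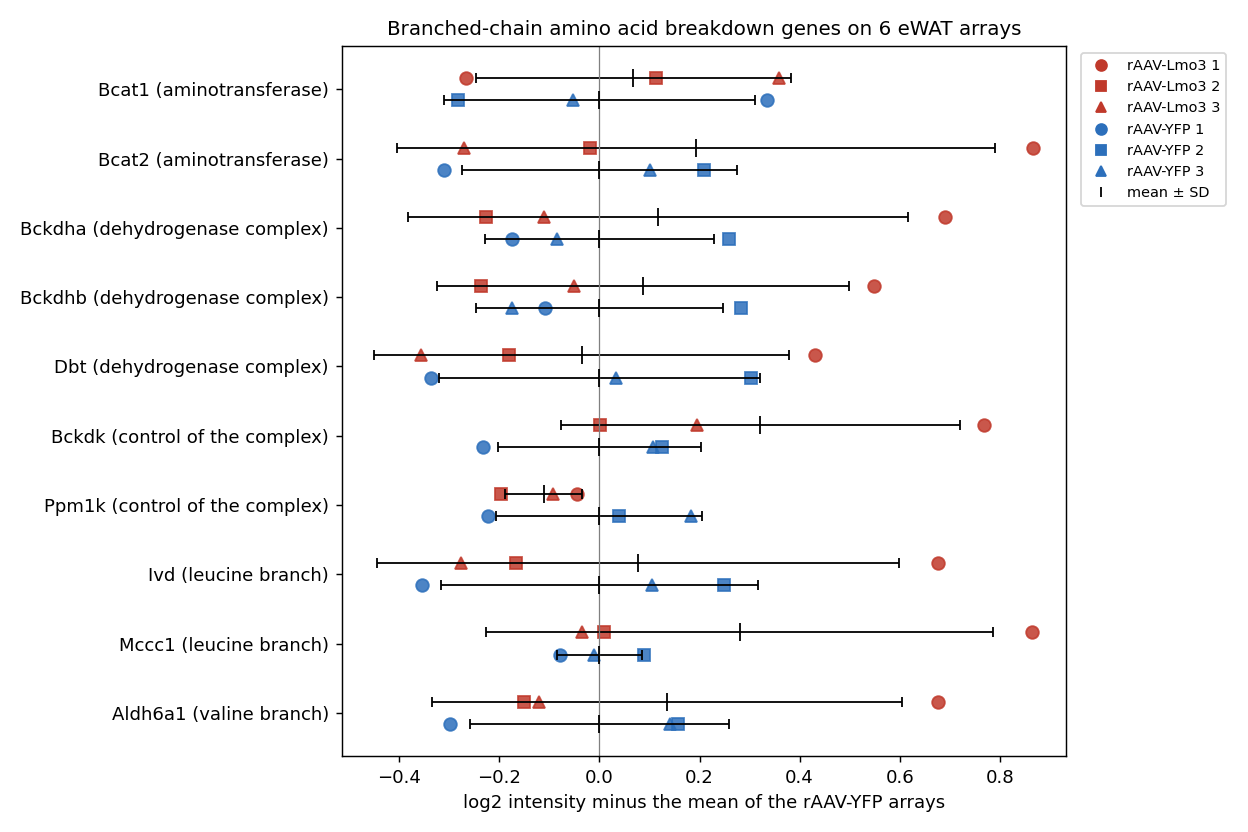
Log2 intensity of each of the 10 genes on each array, minus the rAAV-YFP mean (x axis in log2 units; each gene has a pair of lines, rAAV-Lmo3 in red above rAAV-YFP in blue; circle, square and triangle, replicates 1, 2 and 3; black, mean ± SD, n = 3 pools). The red circle, rAAV-Lmo3 1, lies at the right end for 8 genes, Bcat1 shows the opposite order, and the groups overlap for all 10 genes.

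As a list, 8 of the 10 genes had a log2 difference above 0, against 50.3% of all tested genes, and their median was 0.10, against 0.00 over all tested genes. This count rested on rAAV-Lmo3 1. Without that array only Bckdk and Bcat1 were above 0, 2 of 10 against 50.7% of all tested genes, with a median of -0.14. Without both arrays that stood apart 3 of 10 were above 0 (Bcat1, Bckdk and Mccc1) and the median was -0.04.

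Arrays of the same group differed more than the groups did. Bcat2, Bckdha, Bckdhb, Dbt, Bckdk, Ivd, Mccc1 and Aldh6a1, 8 of the 10 genes, were all highest on rAAV-Lmo3 1, and rAAV-YFP 2 was the highest array of its group for all 8. It was next highest of all 6 arrays for 7 of them, the exception being Bckdk, whose next was rAAV-Lmo3 3. The arrays rAAV-Lmo3 1 and rAAV-YFP 2 were both the highest of their groups for 20.7% of all tested genes, rAAV-Lmo3 1 for 41.1% and rAAV-YFP 2 for 34.1%. On rAAV-Lmo3 1 the 8 genes were 1.59-fold (Bckdk) to 2.02-fold (Bcat2) above the mean of the other rAAV-Lmo3 arrays. On rAAV-YFP 2 they exceeded the other rAAV-YFP arrays by 0.13 (Mccc1) to 0.45 (Dbt) on the log2 scale. All 8 had the larger SD in the rAAV-Lmo3 group, 0.40 to 0.60, against 0.08 to 0.32 in the rAAV-YFP group.

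The 8 genes ran in parallel across the 6 arrays. They were set apart from Bcat1 and Ppm1k after the values had been seen, so high correlation among them was built into the choice. Pearson's r over their 28 pairs was 0.72 to 0.98 with a median of 0.91. Of the 28 pairs, 26 had an r of 0.8 or higher. Over all 45 pairs of the 10 genes the median r was 0.84. The same 26 of 45 pairs reached 0.8, against 6.16% of all pairs of tested genes. The subunits Bckdha and Bckdhb correlated at r = 0.98 (Spearman's rho 0.83, exact permutation p = 0.0083 and 0.058). Bcat2 and Ivd correlated at r = 0.98 (rho 1, exact permutation p = 0.0014 and 0.0028). Over all 45 pairs of the 10 genes, 20 had an exact p of r with an adjusted value under 0.05, both of these pairs included at 0.029. Of the 20, 3 had a negative r, those of Bcat1 with Bcat2, Dbt and Ivd. The share of all pairs of tested genes that would pass was not computed, so this count is not read as a result about these genes. By rho, the smallest adjusted exact p over the 45 pairs was 0.083, so none passed.

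How far these relations rest on single arrays differed between pairs. When the 2 arrays farthest from the median of the first gene were left out, r was 0.94 for Bcat2 and Ivd but 0.52 for Bckdha and Bckdhb. Over the 28 pairs it was then -0.69 to 0.98, with a median of 0.49, so for many pairs the relation rested on the arrays left out. All points share the same 6 arrays and their normalization.

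Bcat1 and Ppm1k did not share the pattern. Bcat1 ran against the 8 genes, with r between -0.98 and -0.61, and its relation to Dbt (r = -0.98, rho -0.94, exact permutation p = 0.0097 and 0.017, adjusted 0.029 and 0.083) was still -0.98 without the 2 farthest arrays. Ppm1k correlated with the 8 genes at 0.11 (Mccc1) to 0.54 (Dbt).

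**Figure D2:**
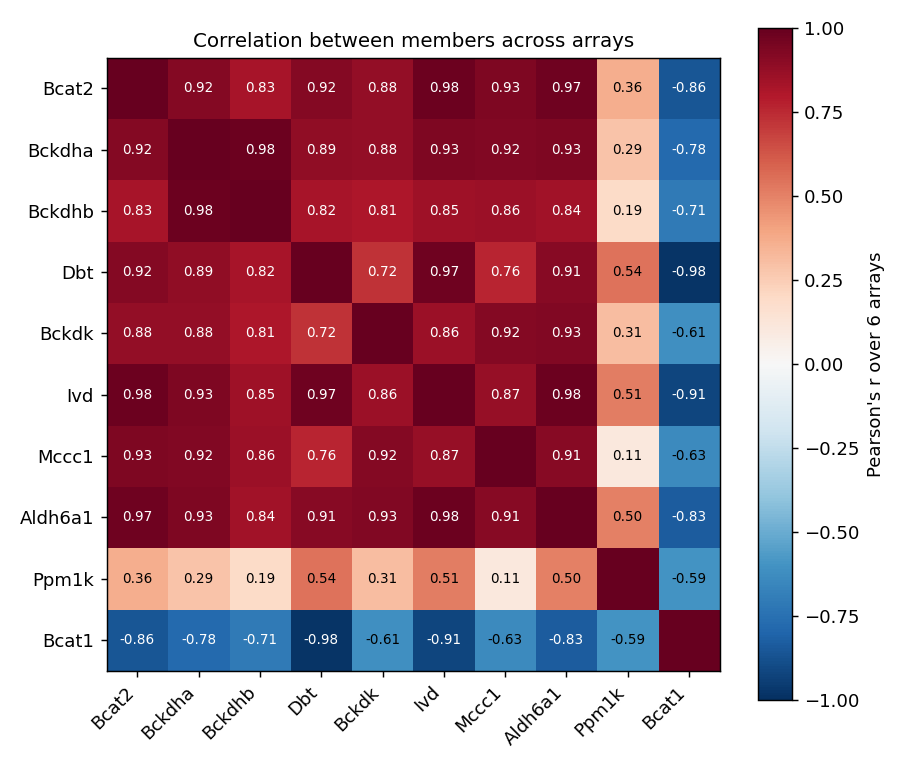
Pearson's r of the log2 intensity between each pair of the 10 genes over the 6 arrays (colour scale and printed values; both axes list the genes, with Ppm1k and Bcat1 last). The block of 8 genes holds values of 0.72 to 0.98, the Ppm1k row lies between 0.11 and 0.54 with these genes, and the Bcat1 row is negative throughout.

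Promoters are shown here for 3 genes of the parallel set, Bckdk, Ivd and Mccc1, and for the 2 genes outside it, Ppm1k and Bcat1, so that the letters upstream of both kinds can be read side by side. The sequences are RefSeq's (GRCm38.p6), written 5′ to 3′ on the gene's strand, up to 250 bases before the annotated start, and the capitals mark CCAAT boxes, the letters CCAAT or their reverse complement ATTGG.
Bckdk, chr7:127903823-127904072, plus strand: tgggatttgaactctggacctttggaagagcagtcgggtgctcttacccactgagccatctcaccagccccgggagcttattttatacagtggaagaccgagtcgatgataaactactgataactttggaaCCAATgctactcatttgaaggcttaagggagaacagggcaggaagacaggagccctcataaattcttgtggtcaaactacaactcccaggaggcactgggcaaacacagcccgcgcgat
Ivd, chr2:118861744-118861958, plus strand: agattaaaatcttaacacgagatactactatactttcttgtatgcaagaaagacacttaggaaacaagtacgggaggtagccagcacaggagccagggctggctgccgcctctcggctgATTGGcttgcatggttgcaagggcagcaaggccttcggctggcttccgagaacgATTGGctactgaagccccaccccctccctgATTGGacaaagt
Mccc1, chr3:36000695-36000928, minus strand: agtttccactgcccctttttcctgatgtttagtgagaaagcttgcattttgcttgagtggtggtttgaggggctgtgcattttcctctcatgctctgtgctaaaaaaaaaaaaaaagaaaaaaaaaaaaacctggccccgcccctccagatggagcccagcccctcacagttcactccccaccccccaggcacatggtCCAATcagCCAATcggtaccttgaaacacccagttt
Ppm1k, chr6:57535553-57535737, minus strand: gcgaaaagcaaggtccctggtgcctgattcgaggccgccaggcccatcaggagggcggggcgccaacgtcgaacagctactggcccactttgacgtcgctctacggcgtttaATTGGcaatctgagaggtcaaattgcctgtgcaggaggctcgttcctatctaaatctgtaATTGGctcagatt
Bcat1, chr6:145076158-145076407, minus strand: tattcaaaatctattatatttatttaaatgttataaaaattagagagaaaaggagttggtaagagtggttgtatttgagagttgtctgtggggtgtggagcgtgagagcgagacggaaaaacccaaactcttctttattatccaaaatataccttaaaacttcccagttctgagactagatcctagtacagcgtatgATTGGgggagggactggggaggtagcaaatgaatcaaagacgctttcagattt
Every window shown holds a CCAAT box, but the windows were picked, and Bcat2 and Bckdha, whose entries lack the box, are not shown. Bcat1 has 2 entries, of which 1 is shown. Of the 10 genes 9, all but Dbt, had a promoter entry, with 13 entries in all. A CCAAT box lay in the 250 bases before the start in 8 of the 13 entries, against 33.8% of 32851 promoter entries. These came from 7 of the 9 genes, all but Bcat2 and Bckdha of the parallel set. The box stood in genes of the parallel set and in both genes outside it, with 3 copies in the Ivd window and 1 in that of Bckdk. The nuclear receptor half-site AGGTCA (either strand) was found in 4 of the 13 entries (1 each of Aldh6a1, Bckdhb and Ppm1k, and the entry of Bcat1 not shown) and in 14% of all promoters. Its direct repeat with 1 base between was in 0 of the 13 and in 0.0335% of all promoters. The GC box GGGCGG was found in 3 of the 13 entries, against 32.7% of all promoters, and the CACCC box CCACCC in 4 of the 13, against 28.1%. Such matches are descriptions of letters, not of binding.

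The arrays rAAV-Lmo3 1 and rAAV-YFP 2, on which the 8 genes were highest in each group, also had the lowest macrophage signal. Of 12 macrophage markers 11 were lowest of their group on both rAAV-Lmo3 1 and rAAV-YFP 2, as were 25.8% of all tested genes, and Cd163 was the exception. The summed intensity of the 12 was 18056, 28532 and 32404 on rAAV-Lmo3 arrays, against 35580, 15541 and 24268 on rAAV-YFP arrays. Bcat1 followed this signal, with r = 0.97 to the mean of the 12 centred log2 values (rho 0.94, and r = 0.99 without the 2 farthest arrays). This relation, the closest of 6 computed between scores, was chosen after the values had been seen, so it is given as a description with no test.

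The mean of the 8 genes, each centred on its mean over the arrays, was 0.62, -0.20 and -0.20 on rAAV-Lmo3 arrays, against -0.31, 0.14 and -0.05 on rAAV-YFP arrays. The macrophage mean was -0.47, 0.22 and 0.44 on rAAV-Lmo3 arrays, against 0.51, -0.73 and 0.02 on rAAV-YFP arrays. The mean of the 8 white adipocyte markers ran the other way with a smaller span. It was 0.14, -0.06 and -0.20 on rAAV-Lmo3 arrays, against -0.11, 0.19 and 0.04 on rAAV-YFP arrays. Of these 8 markers 6 were highest of their groups on both rAAV-Lmo3 1 and rAAV-YFP 2, against 20.7% of all tested genes. Lep was lowest of its group on both arrays, and Cidec was highest on rAAV-Lmo3 1 but not on rAAV-YFP 2. In whole tissue, fewer cells of a type and less RNA per cell cannot be told apart.

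Skeletal muscle markers were also uneven. Myh4, a myosin of fast muscle, read 226, 55 and 54 on rAAV-Lmo3 arrays, against 92, 229 and 59 on rAAV-YFP arrays. It was below the filter on average but, within each group, highest on the same arrays as the 8 genes. Of the 3 tested muscle markers 2 were highest of their groups on both these arrays, against 20.7% of all tested genes. For Acta1, rAAV-Lmo3 1 (450) lay below rAAV-Lmo3 2 (465). The 4 muscle markers summed to 785 to 1267 on rAAV-Lmo3 arrays and 820 to 1435 on rAAV-YFP arrays.

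Brown adipocyte markers were divided. Cox8b, Cidea and Ucp1 were highest on rAAV-Lmo3 1, but rAAV-YFP 2 was not the highest of its group for them. For Elovl3 and Dio2, rAAV-Lmo3 1 was the lowest array of its group. Cox8b, a cytochrome c oxidase subunit of brown fat and muscle, had 1017, 351 and 343 on rAAV-Lmo3 arrays, against 175, 189 and 245 on rAAV-YFP arrays. On rAAV-Lmo3 1 it was 1.55 above the other rAAV-Lmo3 arrays on the log2 scale, and its group difference was 1.31 ± 0.42 (unadjusted p = 0.0181, adjusted p = 0.970 in limma), or 0.79 without that array. Cidea read 191, 87 and 113 on rAAV-Lmo3 arrays, against 83, 79 and 62 on rAAV-YFP arrays, and Ucp1, the uncoupling protein of brown fat, read 133, 94 and 90 on rAAV-Lmo3 arrays, against 84, 77 and 74 on rAAV-YFP arrays. Both were too dim to be tested, and their groups did not overlap, as for Cox8b. Groups did not overlap on the higher side for 4.53% of all tested genes, which do not include genes as dim as Cidea and Ucp1. The groups of the other markers overlapped. Elovl3 read 39, 44 and 81 on rAAV-Lmo3 arrays, against 46, 47 and 31 on rAAV-YFP arrays, and Dio2 read 60, 84 and 77, against 62, 59 and 69. The 5 markers summed to 660 to 1440 on rAAV-Lmo3 arrays and 450 to 481 on rAAV-YFP arrays. The part of macrophage, white or brown adipocyte or muscle RNA in the pattern of the 8 genes was not tested.

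**Figure D3:**
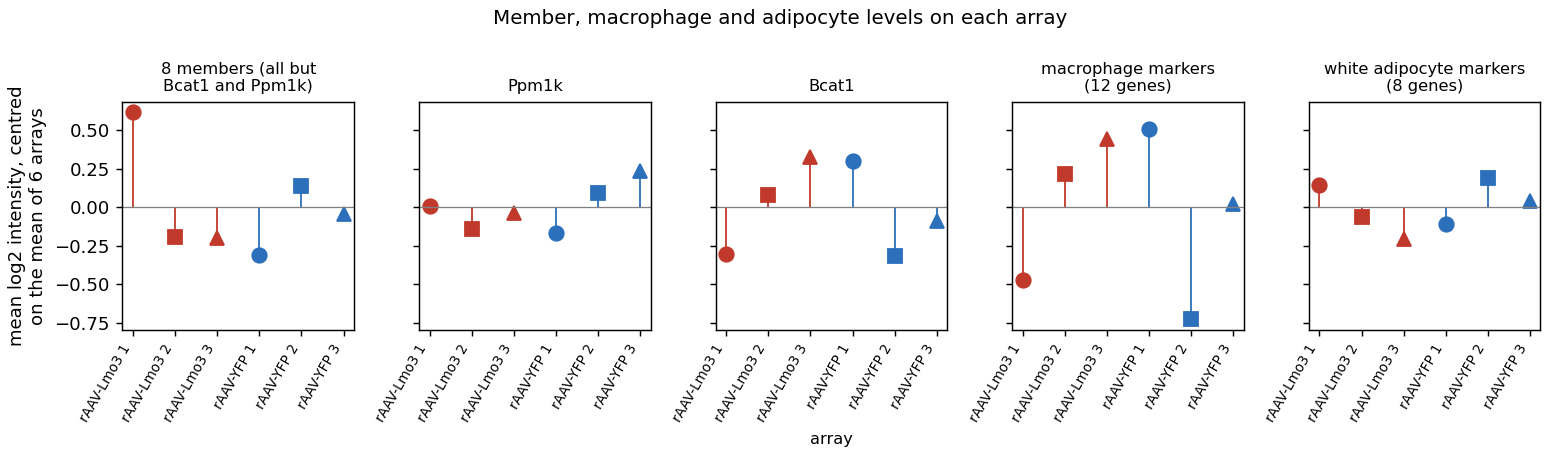
Mean log2 intensity on each array, centred on the mean of the 6 arrays (vertical axis, log2 units; horizontal axis, arrays, with rAAV-Lmo3 in red and rAAV-YFP in blue), for the 8 parallel genes, Ppm1k, Bcat1, 12 macrophage markers and 8 white adipocyte markers. The 8 genes are highest on rAAV-Lmo3 1 (0.62) and next on rAAV-YFP 2 (0.14), where the macrophage mean is lowest (-0.47 and -0.73) and Bcat1 is low as well.

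Further genes of the pathway, taken from a list of the remaining enzymes of the leucine, isoleucine and valine branches and the mitochondrial carrier Slc25a44, gave 23 measured genes. Of these 22 had a log2 difference above 0, against 50.3% of all tested genes, with a median of 0.25, and 18 of 23 without rAAV-Lmo3 1, with a median of 0.07. At an unadjusted p under 0.05 limma gave 5 of 23 higher, against 2.27% of all tested genes, and 0 lower, against 2.4%, and 0 passed after adjustment. The 5 became 2 or 3 when any array but rAAV-Lmo3 2 was left out. Groups did not overlap for 6 of 23 on the higher side, against 4.53% of all tested genes. Of the 23 genes, 9 also act in fatty acid oxidation or another complex, Dld, Hadha and Hadhb among them. These 9 held 3 of the 5 and 4 of the 6, with a median of 0.31, or 0.14 without rAAV-Lmo3 1. The other 14 held 2 of the 5 and 2 of the 6, with a median of 0.23, or 0.05 without that array. Highest of all 6 arrays was again rAAV-Lmo3 1, for 21 of the 23.

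The genes with the smallest p were Hadha and Hadhb, the subunits of the trifunctional protein of fatty acid oxidation, which pathway maps also list for branched-chain amino acid breakdown. Hadha had 3094, 2843 and 3064 on rAAV-Lmo3 arrays, against 2503, 2092 and 2285 on rAAV-YFP arrays, and its log2 difference of 0.39 ± 0.09 (unadjusted p = 0.0046, adjusted p = 0.970 in limma) stayed at 0.37 without rAAV-Lmo3 1. Hadhb had 2434, 1989 and 2180 on rAAV-Lmo3 arrays, against 1753, 1509 and 1734 on rAAV-YFP arrays, a difference of 0.40 ± 0.11. For these subunits rAAV-YFP 2 was the lowest array, unlike for the 8 parallel genes.

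Mcee, the epimerase that acts on methylmalonyl-CoA, which is formed from propionyl-CoA of the valine and isoleucine branches, had 1168, 1031 and 1052 on rAAV-Lmo3 arrays, against 771, 847 and 1014 on rAAV-YFP arrays (0.31 ± 0.12). Auh, the methylglutaconyl-CoA hydratase of the leucine branch, had 740, 529 and 591 on rAAV-Lmo3 arrays, against 465, 479 and 524 on rAAV-YFP arrays (0.33 ± 0.14), and is named after its value was seen. With Dld these are the 5 genes with an unadjusted p under 0.05. Mmut, the mutase after Mcee, was the 1 gene below 0, at -0.03 ± 0.17. Slc25a44, a carrier that brings branched-chain amino acids into mitochondria, had 519, 620 and 647 on rAAV-Lmo3 arrays, against 463, 529 and 598 on rAAV-YFP arrays (0.17 ± 0.13), and was not highest on rAAV-Lmo3 1.

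**Figure D4:**
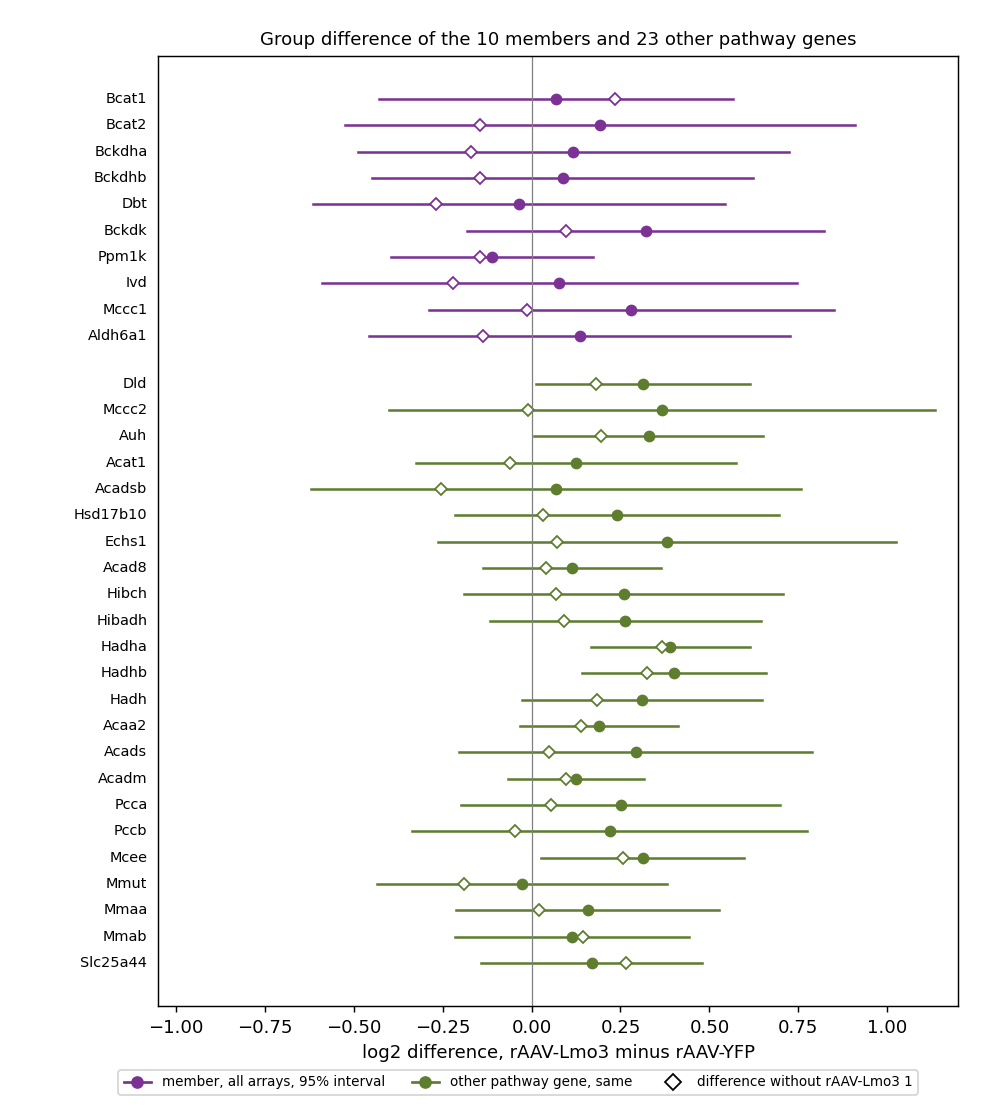
Log2 difference, rAAV-Lmo3 minus rAAV-YFP, of the 10 genes (purple, above) and of 23 other pathway genes (green, below), with 95% intervals from limma (horizontal axis, log2 units; filled circle, all 6 arrays; open diamond, the difference without rAAV-Lmo3 1). All 10 purple intervals include 0, 22 of 23 green circles lie right of 0, and the diamonds of Bcat2, Bckdha, Bckdhb, Dbt, Ppm1k, Ivd, Mccc1 and Aldh6a1 lie left of 0.

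The pyruvate and oxoglutarate dehydrogenases are sister complexes of the branched-chain one, with the same architecture and their own kinases and phosphatases. Of their 13 genes 12 had a difference above 0, against 50.3% of all tested genes, with a median of 0.11. Without rAAV-Lmo3 1 it was 7, against 50.7% of all tested genes, with a median of 0.05. Dlat, the transacetylase core of pyruvate dehydrogenase and the counterpart of Dbt, had 906, 903 and 1047 on rAAV-Lmo3 arrays, against 652, 582 and 716 on rAAV-YFP arrays. Its difference of 0.55 ± 0.11 (unadjusted p = 0.0017, adjusted p = 0.970 in limma) was 0.59 without rAAV-Lmo3 1, where Dbt was at -0.27. Pdk1, a pyruvate dehydrogenase kinase, differed by 0.40 ± 0.15, Pdhx by 0.37 ± 0.18 and Pdhb by 0.46 ± 0.27. Their unadjusted p in limma was 0.031, 0.087 and 0.136, and the adjusted p was 0.970 for each. Without rAAV-Lmo3 1 they differed by 0.29, 0.16 and 0.14.

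The TCA cycle receives the end products of the pathway. Its 13 measured genes were all above 0, against 50.3% of all tested genes, with a median of 0.26, and 12 were above 0 without rAAV-Lmo3 1, with a median of 0.09. At an unadjusted p under 0.05 limma gave 4 higher (Cs, Idh3a, Sucla2 and Sdhd, named after their values were seen), against 2.27% of all tested genes, and 0 passed after adjustment (adjusted p = 0.970 for each of the 4). The study reported this theme from these arrays, so the count is not independent evidence of its direction. That the 10 genes had a lower median than the further pathway genes or the TCA cycle was not tested.

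Of 7 known regulators of the pathway and of mitochondrial genes, 4 were above 0 and 0 had an unadjusted p under 0.05. Klf15, a glucocorticoid-responsive factor that drives amino acid breakdown in muscle and liver, had 842, 407 and 296 on rAAV-Lmo3 arrays, against 405, 620 and 473 on rAAV-YFP arrays. It too was highest on rAAV-Lmo3 1 and next on rAAV-YFP 2, with a difference of -0.08 ± 0.38, and -0.50 without rAAV-Lmo3 1.

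For each of the 10 genes the closest match among 11962 other tested genes was sought by Pearson's r over the 6 arrays, as a description. These were Nav2 for Bcat1 (r = 0.998), Met for Bcat2 (0.996), Fgf10 for Bckdha (0.999), Xaf1 for Bckdhb (0.998), Cdo1 for Dbt (0.999) and Cops9 for Bckdk (0.998). The others were Pla2g2d for Ppm1k (0.990), Lage3 for Ivd (0.992), Suclg1 for Mccc1 (0.995) and Slc25a4 for Aldh6a1 (0.997). The closest of the other members stood lower in this ranking, at rank 24 (for Bcat2), 27 (Aldh6a1), 30 (Bckdhb), 33 (Ivd), 53 (Bckdha), 67 (Dbt), 343 (Mccc1), 362 (Bckdk), 1473 (Ppm1k) and 9420 (Bcat1). All these values rest on 6 arrays.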

How the data were processed

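RNA of each pool was labelled and read on mouse Gene ST arrays (Affymetrix). The deposited values are RMA intensities, which the authors computed in Affymetrix Expression Console 1.1 and gave on the linear scale as whole numbers, where log2 values had been anticipated. Log2 was taken here. The genome build of the array annotation is not given in the sources used here. Of 35556 probe sets 21789 had exactly 1 gene symbol, the brightest per symbol was kept (19938 genes), and the dimmest 40% were left out (7975 genes, mean log2 intensity below 6.83, or 114 in intensity). On 11963 genes a two-sided moderated test was run (limma 3.58.1 under R 4.3.3, default eBayes prior), adjusted by Benjamini-Hochberg with a threshold of 0.05, and the steps were tested on simulated data. Single values and correlations over arrays were compared by exact permutation tests (scipy 1.17.1). Replicates are separate pools per the labels, and their number limits the precision.

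The members and all lists were chosen with earlier results of these data known. Named genes are the 10 members, up to 4 tested genes with the smallest p of the further pathway, sister complex and marker lists, and Klf15, Slc25a44, Dld and Lmo3. Auh, Mmut, Myh4, the untested brown adipocyte markers and the named TCA cycle and transport genes are exceptions, picked with their values in view. Markers of endothelial (5 tested), fibroblast and progenitor (5), mesothelial (4), T (1) and B cells (1) were also measured. None of these had an unadjusted p under 0.05 except the T cell gene Cd3e (-0.42 ± 0.17). Alternatives were other normalizations, other variance models, a replicate block, other filters, the mean over probe sets, and leaving out arrays. Same-numbered arrays of the groups did not deviate together, with correlations of -0.55, -0.40 and 0.26, so the numbers were not treated as pairs. Promoter sequences and their motif counts came from RefSeq (GRCm38.p6), matched by symbol.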

Additional observations from a re-analysis of the deposited data

How the results depend on the processing

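The differences of the 10 genes were recomputed under 15 alternatives, which gave 148 values. Of these 130 kept their direction, 18 reversed and 0 passed the threshold, with a smallest adjusted p of 0.831 and a smallest unadjusted p of 0.0628 (limma). Every reversal came from leaving out arrays. Leaving out single arrays gave -0.14 to 0.28 for Aldh6a1, -0.077 to 0.24 for Bcat1, -0.14 to 0.42 for Bcat2, -0.17 to 0.29 for Bckdha, -0.14 to 0.25 for Bckdhb, -0.27 to 0.12 for Dbt, -0.22 to 0.25 for Ivd and -0.012 to 0.44 for Mccc1. Without both arrays that stood apart the log2 difference was -0.057 for Aldh6a1, -0.040 for Bcat2, -0.040 for Bckdha, -0.0027 for Bckdhb and -0.10 for Ivd, and 3 of the 10 genes were above 0, against 8 with all arrays and 2 (without rAAV-Lmo3 1) to 9 without single arrays. The count of further pathway genes at an unadjusted p under 0.05, 5 as reported, was 3 after a second quantile normalization, 2 with the equal-variance t-test, 2 without both arrays and 2 to 5 without single arrays. With the replicate number as a block it was also 2, and the block changed no call of the 10 genes. Over all genes, 271 higher and 287 lower at an unadjusted p under 0.05 became 317 and 216 with each array centred on its median, 122 to 404 and 140 to 339 without single arrays (167 higher without rAAV-YFP 1, 122 and 141 without rAAV-YFP 2, 143 and 140 without rAAV-Lmo3 3), and 458 lower without the filter on dim genes, which tests 19938 genes. The cause of the other shifts was not tested. No count at an adjusted p under 0.05 rose above 0. With 3 pools per group, 95% intervals reached 0.28 (Ppm1k) to 0.72 (Bcat2) to either side on the log2 scale.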

Other observations

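Genes for uptake and sensing of branched-chain amino acids were also measured. Of 8 tested genes, 1 had a log2 difference above 0, Sesn1, which encodes a sestrin, with 642, 673 and 792 on rAAV-Lmo3 arrays, against 676, 526 and 588 on rAAV-YFP arrays (0.24 ± 0.13, SE). The median was -0.11, and -0.04 without rAAV-Lmo3 1, where 2 of 8 were above 0. Slc7a5, the large neutral amino acid transporter, had 165, 229 and 216 on rAAV-Lmo3 arrays, against 246, 187 and 268 on rAAV-YFP arrays (-0.20 ± 0.18). Its partner Slc3a2 had 3138, 3555 and 3699 on rAAV-Lmo3 arrays, against 3590, 3733 and 3722 on rAAV-YFP arrays (-0.09 ± 0.09). Slc43a3, which belongs to the Slc43 transporter family but is known to carry nucleobases, was the 1 gene of the 8 whose groups did not overlap. It had 2785, 2376 and 2329 on rAAV-Lmo3 arrays, against 3221, 3158 and 2973 on rAAV-YFP arrays. This is 1 of 8 genes, near the background, since 5.95% of all tested genes did not overlap on the lower side and 10.5% in either direction. Its difference of -0.32 ± 0.10 had an unadjusted p of 0.0127 and an adjusted p of 0.970 in limma. It was -0.41 without rAAV-Lmo3 1. These genes were named after their values were seen.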
